A study of Mus musculus with 12 samples.

Results

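The cytochrome P450 genes Cyp2b9, Cyp2b10, Cyp2b13, Cyp2a4, Cyp2a5, Cyp2a12 and Cyp2a22 were followed through 12 mouse liver RNA-seq libraries together with Nr1i3 and Por, 9 genes of the 50559 listed in the count tables. They were taken by gene symbol, but the set was also selected on counts scaled by library size in these same libraries, with the diet rise of Cyp2b13 already known, so their levels are given as a description. The adjusted p-values below come from fits over all genes. They place each gene among the genes tested and are not independent evidence for the choice of these genes. All 9 genes passed the filter on low counts in each of the 6 comparisons made.

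The livers came from C57BL/6N mice in 4 groups of 3 biological replicates. One group ate a normal chow diet (NCD) and one a high-fat diet (HFD) that drew 60% of its energy from fat, each for 12 weeks. The remaining groups ate HFD and were injected intraperitoneally with compound C1 (HFD+C1) or compound C2 (HFD+C2) at 5 mg/kg per day for 12 weeks. The series title calls C1 and C2 CYP4A inhibitors. Their structures are not stated, and the labels record no vehicle injection for NCD or HFD mice, nor the sex or starting age of the animals. The 4 Y-linked genes checked (Ddx3y, Eif2s3y, Kdm5d, Uty) were detected in all 12 libraries. Xist, expressed from the inactive X chromosome of females, had 30 counts (3.04 CPM) in NCD replicate 1 and 0 to 7 counts in each of the others. Summed over these 5 sex-linked genes, the level was 112.3 to 153.9 CPM in NCD and 61.1 to 84.0 CPM in HFD; 3 of the 4 Y-linked genes were lower with the diet at an unadjusted p under 0.05 and 0 of the 4 were called by edgeR. The part of this in the results was not tested.

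Depth was uneven, from 4281210 reads counted in genes for NCD replicate 2 up to 32124248 for HFD replicate 1. Levels are given as CPM, the counts per 1000000 reads counted in genes. NCD replicate 1 and HFD+C2 replicate 1 stood apart from their groups: 58.2% and 47.1% of their reads fell in no single gene, against 27.3% to 40.7% in the other 10 libraries, and their log2 CPM correlated at 0.914 to 0.95 across genes with that of their replicates, against 0.979 to 0.994 for the remaining pairs within a group. The 7 hepatocyte marker genes measured summed to 34770 CPM in NCD replicate 1 and 71083 CPM in HFD+C2 replicate 1. In the other libraries the sum lay between 82094 and 143361 CPM. Both measures also moved with the groups: reads in no single gene made up 35.7% to 58.2% in NCD, 31.9% to 32.9% in HFD and 27.3% to 28.7% in HFD+C1, without overlap, and the hepatocyte sum was at most 83701 CPM in NCD and at least 90315 CPM in HFD. The part of this in the results was not tested. The 7 Kupffer cell and macrophage markers, none at 0 in any group, summed to 126.6 to 179.7 CPM in HFD, 220.3 to 279.7 in HFD+C1, 175.1 to 352.4 in HFD+C2 and 152.9 to 302.1 in NCD. In bulk liver, fewer hepatocytes and less RNA per hepatocyte cannot be told apart.

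Nr1i3 encodes CAR, the constitutive androstane receptor, a nuclear receptor of hepatocytes that moves into the nucleus in response to drugs such as phenobarbital and binds DNA with RXR. Cyp2b10 is its classical target in mouse liver, whereas Cyp2b9 and Cyp2b13 are known as female-predominant genes held low in males by pulsatile growth hormone. Cyp2a5 encodes the enzyme that hydroxylates coumarin and oxidises nicotine, Cyp2a4 a testosterone hydroxylase, and Por the reductase that passes electrons from NADPH to microsomal P450 enzymes.

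The 7 P450 genes are neighbours. In the RefSeq annotation of GRCm38.p6 (mm10, the build that the submitters' notes name) they lie within 1.14 Mb of chromosome 7, from Cyp2b10 (chr7:25897658-25926624, plus strand) over Cyp2b13 (chr7:26061388-26096197, plus), Cyp2b9 (chr7:26173350-26210661, plus), Cyp2a4 (chr7:26307192-26315088, plus), Cyp2a5 (chr7:26835339-26843264, plus) and Cyp2a22 (chr7:26931631-26939413, minus) to Cyp2a12 (chr7:27029090-27036818, plus). Between them lie 4 pseudogenes and 3 other protein-coding Cyp2 genes. Those 3 genes, Cyp2b19, Cyp2b23 and Cyp2g1, had at most 7 counts in any library. Among the pseudogenes, Cyp2b28-ps had 93, 4 and 9 counts in NCD replicates 1, 2 and 3 and 0 to 1 in the HFD libraries. It is not part of the Cyp2b sums below. Nr1i3 (chr1:171213934-171218845, plus) and Por (chr5:135670040-135735326, plus) lie elsewhere.

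The sequences before the start sites set the members side by side, since Cyp2b9 and Cyp2b13 moved opposite to Cyp2b10 with the diet, and since Cyp2a4 and Cyp2a5 are close enough in sequence to share reads. Any part of these sequences in the diet changes was not tested. Each is the 250 bases before the start site given in RefSeq's GRCm38.p6 promoters, 5′ to 3′ on the plus strand. Capitals in Cyp2b13 and Cyp2b10 mark bases that differ from Cyp2b9 in a pairwise alignment, and capitals in Cyp2a4 mark bases that differ from Cyp2a5.
Cyp2b9: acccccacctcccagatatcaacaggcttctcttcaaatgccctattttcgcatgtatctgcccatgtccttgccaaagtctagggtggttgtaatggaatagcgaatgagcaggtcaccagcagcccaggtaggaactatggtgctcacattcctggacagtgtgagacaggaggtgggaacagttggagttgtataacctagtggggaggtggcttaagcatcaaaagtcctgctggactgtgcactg
Cyp2b13: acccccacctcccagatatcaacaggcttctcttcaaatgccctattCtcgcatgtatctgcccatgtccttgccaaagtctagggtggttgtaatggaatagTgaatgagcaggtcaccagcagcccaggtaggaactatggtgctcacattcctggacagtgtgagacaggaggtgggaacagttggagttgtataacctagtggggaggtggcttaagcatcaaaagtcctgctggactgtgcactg
Cyp2b10: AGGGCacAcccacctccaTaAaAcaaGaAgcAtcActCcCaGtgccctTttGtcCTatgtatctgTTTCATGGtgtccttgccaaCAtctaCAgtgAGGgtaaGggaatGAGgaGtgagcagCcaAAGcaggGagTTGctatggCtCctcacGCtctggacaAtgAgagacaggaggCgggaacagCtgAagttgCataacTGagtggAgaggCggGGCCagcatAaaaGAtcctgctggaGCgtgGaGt
Cyp2a5: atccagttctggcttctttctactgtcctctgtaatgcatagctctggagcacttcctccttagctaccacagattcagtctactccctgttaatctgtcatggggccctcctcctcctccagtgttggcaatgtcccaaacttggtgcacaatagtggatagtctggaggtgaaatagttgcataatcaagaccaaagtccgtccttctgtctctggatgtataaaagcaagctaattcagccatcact
Cyp2a4: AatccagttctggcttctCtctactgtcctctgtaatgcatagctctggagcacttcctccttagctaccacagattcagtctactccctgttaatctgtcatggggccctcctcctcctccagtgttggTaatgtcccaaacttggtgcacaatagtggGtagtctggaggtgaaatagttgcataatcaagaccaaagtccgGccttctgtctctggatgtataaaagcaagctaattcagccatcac
The windows lie at chr7:26173159-26173408, chr7:26061245-26061494, chr7:25897408-25897657, chr7:26835089-26835338 and chr7:26306942-26307191 in the same order. The start sites of Cyp2b9 and Cyp2b13 in that table lie 59 and 107 bases inside the annotated gene.

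Cyp2b9 and Cyp2b13 differed at 2 of the 250 bases (99.2% identical), whereas Cyp2b10 was 68.1% identical to Cyp2b9 over the alignment. Cyp2a4 and Cyp2a5 were 97.6% identical, with 5 capital bases in Cyp2a4. A search of both strands for AGGTCA, a nuclear receptor half-site, found it in the windows of Cyp2b9 and Cyp2b13, starting 138 bases before the start site, and in none of the other 5 P450 windows. It was in 14.04% of 32536 windows of that length. AGTTCA, another such half-site (11.84% of windows), the STAT-type palindrome TTCNNNGAA (7.04%) and the forkhead-type TGTTTAC (3.17%) were in 0 of the 7. A match is a description of letters, and the lack of one says nothing of binding farther away.

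The coding sequences were close as well: Cyp2b9 and Cyp2b13 were 92.7% identical, Cyp2b9 and Cyp2b10 87.7%, Cyp2a12 and Cyp2a22 97.0%, and Cyp2a4 and Cyp2a5 98.5% over the bases aligned without gaps. Reads can therefore be shared or discarded between members, and the length of the reads is not given in the sources used here. Of all stretches of 100 bases in the principal transcript, 0% of those of Cyp2b10, 1.18% of Cyp2b9, 9.29% of Cyp2b13, 6.36% of Cyp2a22, 6.83% of Cyp2a12, 11.2% of Cyp2a4 and 14.4% of Cyp2a5 occurred in a transcript of another annotated gene. For Cyp2b13 that gene was most often Gm45225, which is not among the Cyp2 genes named here, and then Cyp2b9. At 50 bases these shares ran from 9.69% for Cyp2b10 to 40.8% for Cyp2a5. Cyp2a4 held 10 to 275 counts in a library and Cyp2a5 3283 to 20727, so the level of Cyp2a4 is uncertain under such sharing.

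The Cyp2b genes moved in opposite directions with the diet. Cyp2b10, the CAR target, was lower in HFD than in NCD, while its neighbours Cyp2b9 and Cyp2b13 were higher. Cyp2b10 stood at 20.4, 22.9 and 20.4 CPM in NCD replicates 1, 2 and 3, and at 0.809, 0.249 and 0.556 CPM in HFD, where it had 26, 7 and 14 counts. The NCD libraries, NCD replicate 1 included, lay close together and far above every HFD library. Cyp2b10 fell by 5.05 on the log2 scale (standard error 0.38, edgeR adjusted p 0.00174, n = 3 per group), and the HFD mean was 0.0253 times that of NCD.

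Cyp2b9 rose. It stood at 5.98, 17.1 and 20.8 CPM in NCD and at 208.9, 144.0 and 210.7 CPM in HFD, with no overlap between groups. The log2 change was 3.87 (standard error 0.47, edgeR adjusted p 0.00718). Cyp2b13 was nearly silent in NCD, with 1, 4 and 19 counts (0.101, 0.934 and 0.821 CPM), and stood at 17.3, 17.4 and 16.7 CPM in HFD. Its log2 change was 4.97 (standard error 0.45, edgeR adjusted p 0.00326). NCD replicate 1 held the lowest value of both genes. Without that library the log2 changes were 3.44 for Cyp2b9 and 4.47 for Cyp2b13, both still called.

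**Figure D1:**
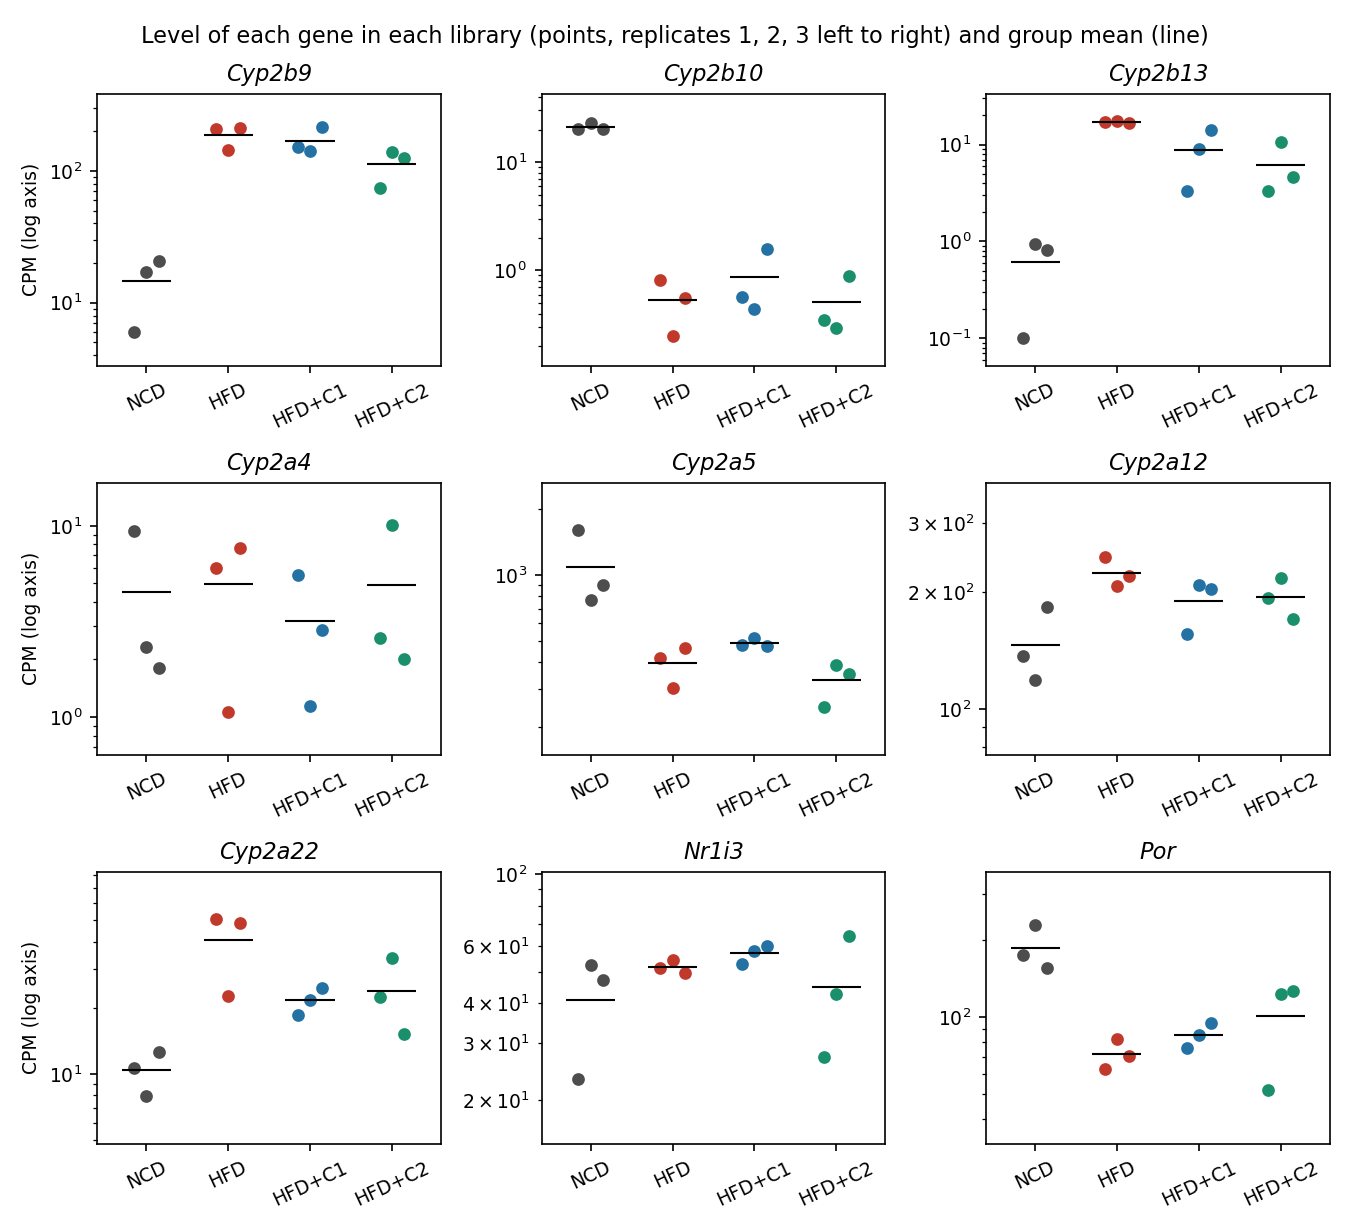
CPM of each of the 9 genes (log axis) in the 3 libraries of each group, with the group mean as a line; each panel has its own range. Cyp2b10, Cyp2a5 and Por were highest in NCD, Cyp2b9, Cyp2b13 and Cyp2a22 were lowest there, and Cyp2a4 and Nr1i3 overlapped between NCD and HFD.

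Counts within a library do not depend on scaling between libraries. Shares of a sum are tied to each other, so that one can fall because another member rises, and they are given as a description. Of the counts of the 3 Cyp2b members, Cyp2b10 held 77.0%, 56% and 48.5% in NCD replicates 1, 2 and 3 (95% Wilson intervals, which cover counting error only, 71.5% to 81.7%, 48.6% to 63.1% and 45.4% to 51.6%). In HFD it held 0.154% to 0.356%. Cyp2b9 went from 22.6% to 49.5% of these counts in NCD to 89.1% to 92.4% in HFD, and Cyp2b13 from 0.383% to 2.29% to 7.33% to 10.8%. The summed level of the 3 genes was 36.5 ± 8.67 CPM in NCD and 205.5 ± 38.0 CPM in HFD (SD, n = 3). Per kilobase of principal transcript, Cyp2b10 had the highest mean in NCD at 11.1 ± 0.754 CPM per kb, ahead of Cyp2b9 at 7.79 ± 4.11 and Cyp2b13 at 0.330 ± 0.241. That order did not hold in every library: in NCD replicate 3, Cyp2b9 had 482 counts and Cyp2b10 472. In HFD the order was Cyp2b9 (100.1 ± 20.3), Cyp2b13 (9.14 ± 0.199) and Cyp2b10 (0.281 ± 0.147 CPM per kb).

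The Cyp2a members also parted. Cyp2a5, the most abundant of the 9 per kilobase in every group, stood at 1609, 766.8 and 895.4 CPM in NCD and at 414.8, 304.3 and 463.6 CPM in HFD. All NCD libraries lay above all HFD libraries, with NCD replicate 1 highest. Cyp2a5 fell by 1.23 (log2; standard error 0.29, edgeR adjusted p 0.0477), and by 0.92 without NCD replicate 1, where the call held. It was called in only 2 of the 6 fits that left out 1 library.

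Cyp2a22 moved the other way. It stood at 10.7, 7.94 and 12.5 CPM in NCD and at 50.6, 22.5 and 48.7 CPM in HFD, with no overlap and with HFD replicate 2 below the other HFD libraries. The log2 change was 2.16 (standard error 0.35, edgeR adjusted p 0.0225). Cyp2a12, a hydroxylase of steroids and bile acids, stood at 136.6, 118.7 and 183.0 CPM in NCD and at 245.6, 207.2 and 219.9 CPM in HFD. Its ranges did not overlap, but the log2 change of 0.82 (standard error 0.23) missed the threshold (edgeR adjusted p 0.0640). Without NCD replicate 1 it was 0.71 and called (adjusted p 0.0320), as it was with DESeq2 (adjusted p 0.00807) and in an edgeR fit of all 12 libraries (adjusted p 0.0293). Of the alternatives, 3 of 7 fits with all libraries and 2 of 6 that left out 1 library called Cyp2a12.

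Cyp2a4 scattered within each group. It stood at 9.43, 2.34 and 1.81 CPM in NCD and at 6.04, 1.07 and 7.70 CPM in HFD, so the groups overlapped and the log2 change of 0.38 had a 95% interval of -1.35 to 2.12 (edgeR adjusted p 0.768). Leaving out NCD replicate 3 or HFD replicate 3 turned its sign (log2 changes of -0.04 and -0.05). Within the Cyp2a counts, Cyp2a5 held 81.9% to 91.1% in NCD and 56.9% to 62.7% in HFD, Cyp2a12 7.74% to 16.7% and 29.7% to 38.7%, and Cyp2a22 0.603% to 1.15% and 4.21% to 7.05%. The summed Cyp2a level was 1252 ± 456 CPM in NCD and 664 ± 112 CPM in HFD (SD, n = 3).

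**Figure D2:**
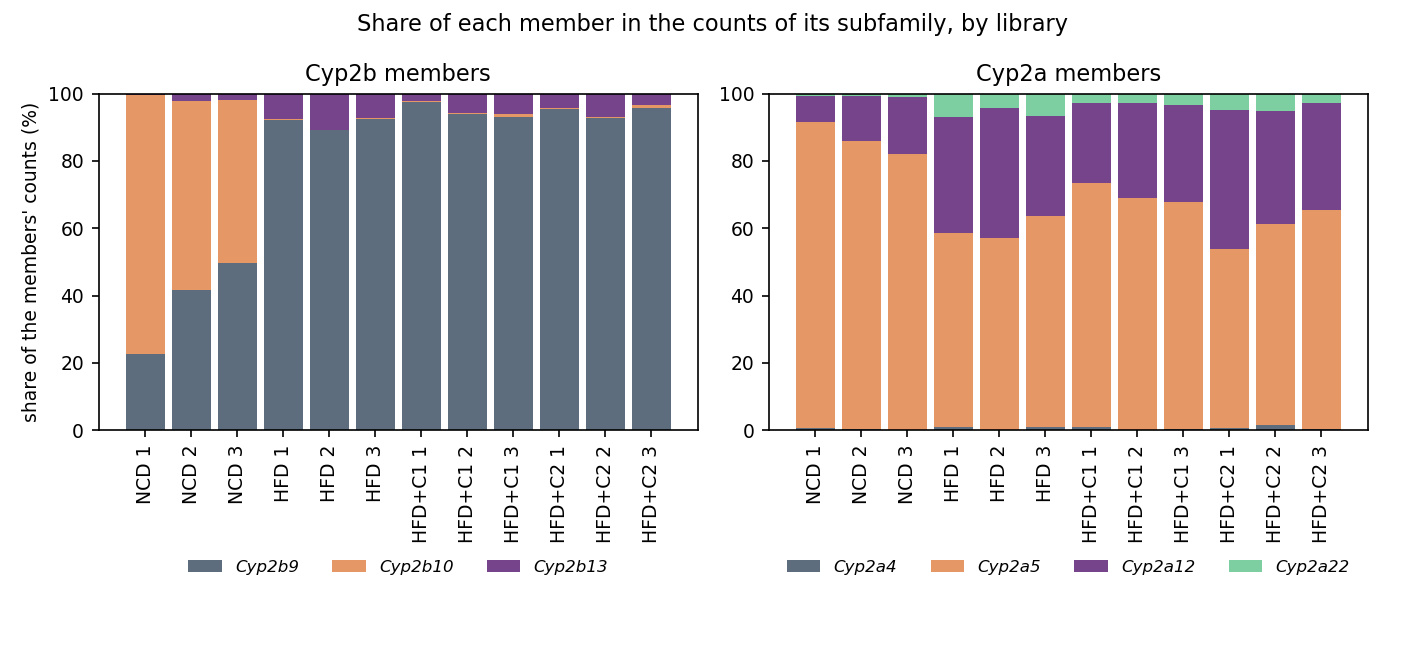
Share (%) of each member in the summed counts of the 3 Cyp2b members (left) and the 4 Cyp2a members (right), 1 bar per library. Cyp2b10 made up 48.5% to 77.0% of the Cyp2b counts in the NCD libraries and under 1% in each of the 9 HFD, HFD+C1 and HFD+C2 libraries, and Cyp2a5 held a larger share of the Cyp2a counts in each NCD library than in any other.

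The receptor and the reductase differed. Nr1i3 stood at 23.2, 52.6 and 47.1 CPM in NCD and at 51.1, 54.3 and 49.6 CPM in HFD. NCD replicates 2 and 3 lay at or near the HFD level and NCD replicate 1 below it. The log2 change was 0.53, with a 95% interval of -0.16 to 1.23 (edgeR adjusted p 0.277), and 0.21 without NCD replicate 1. The edgeR fit with no filter called it (log2 change 0.68, adjusted p 0.0476). Nr1i3 shares 4691 bases with Tomm40l, a mitochondrial import gene on the opposite strand, and whether reads were counted by strand is not stated. Tomm40l stood at 27.9 to 35.9 CPM in NCD and 19.7 to 25.2 CPM in HFD.

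Por stood at 174.1, 228.2 and 155.7 CPM in NCD and at 62.9, 82.3 and 70.6 CPM in HFD, well apart. It fell by 1.16 on the log2 scale (standard error 0.20, edgeR adjusted p 0.0254), and by 1.25 without NCD replicate 1.

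Beside these diet changes, reads aligned to no annotated feature made up 8.58% to 23.2% in NCD and 4.92% to 6.84% in HFD. Of the cell type markers tested, 2 of 6 stellate cell and 1 of 5 endothelial genes were called higher with the diet, and 0 of 7 hepatocyte and 0 of 7 Kupffer cell genes were called. The part of these in the members' values was not tested.

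In the diet comparison 6 of the 9 members were called, 3 higher and 3 lower, against 6.03% of the 13864 genes tested. The ranges of the 2 groups did not overlap for 7 of the 9 members, against 38.9% of all genes tested. Since the members were chosen with these levels known, nothing is read from these shares. Over all genes 836 were called, 359 higher (2.59%) and 477 lower (3.44%). Scaled by library size alone, a setting chosen after seeing the data, the split was 241 higher and 864 lower. The count of 836 became 23, 131 and 25 when HFD replicate 1, 2 or 3 was left out, and 1838 without NCD replicate 1 (984 higher, 7.34% of the genes tested, and 854 lower, 6.37%). Of the members, Cyp2b10 and Cyp2b13 were called in all 6 such fits. Cyp2b9 was called in 4, with log2 changes of 3.44 to 4.33, and Cyp2a22 in 4, with 1.95 to 2.47. Por was called in 3, with log2 changes of -1.25 to -0.96, and Cyp2a5 in 2, with -1.40 to -0.92.

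C1 on top of HFD left none of the 9 members past the threshold, against 7 of 13358 genes (0.0524%) called in all. Cyp2b13 was at 3.28, 8.92 and 14.3 CPM in HFD+C1, each below all 3 HFD libraries. Its log2 change from HFD was -1.01, with a 95% interval of -1.73 to -0.28 and an unadjusted p of 0.00999 (edgeR adjusted p 0.437). Cyp2a22 was at 18.5, 21.6 and 24.7 CPM, overlapping HFD only through HFD replicate 2. Its log2 change was -0.95 (95% interval -1.49 to -0.41, edgeR adjusted p 0.295). With HFD replicate 2 left out, Cyp2a22 was called at a log2 change of -1.25 (adjusted p 0.000508), in a fit that called 102 genes. The edgeR fit with no filter called Cyp2b13 (adjusted p 2.14e-07) and Cyp2a22 (adjusted p 1.54e-08) at log2 changes of -1.01 and -0.95, among 206 called genes of 29858 tested. These log2 changes match those above, so only the p-values moved. Each gene was called in only this 1 of the 7 alternative fits with all libraries.

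Cyp2b9 under C1 was at 151.4, 141.8 and 215.8 CPM, overlapping HFD (log2 change -0.18, 95% interval -0.58 to 0.22). Cyp2b10 overlapped HFD, at 0.566, 0.442 and 1.59 CPM, with 10 to 30 counts (log2 change 0.59, 95% interval -0.59 to 1.76). Cyp2a5 was at 479.8, 512.9 and 474.5 CPM, each above all HFD libraries, with a log2 change of 0.28 (95% interval -0.05 to 0.62). Cyp2a12 had a log2 change of -0.27, Cyp2a4 of -0.65, Nr1i3 of 0.12 and Por of 0.23, each with an interval that included 0. Ranges were apart for 2 of the 9 members, Cyp2b13 and Cyp2a5, against 12.1% of the genes tested. In the same comparison all 7 Kupffer cell and macrophage markers had positive log2 changes, 6 with an unadjusted p under 0.05, and a median of 0.74. All 5 red blood cell markers had negative ones, 3 of them with an unadjusted p under 0.05. The part of either in the members' values was not tested.

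C2 on top of HFD likewise gave 0 calls among the members, against 3 of 13503 genes (0.0222%). Cyp2b13 was at 3.29, 10.6 and 4.60 CPM in HFD+C2, each below all HFD libraries, with a log2 change of -1.42 (95% interval -2.23 to -0.62, unadjusted p 0.00305, edgeR adjusted p 0.695). DESeq2 called it (log2 change -1.43, adjusted p 0.0367), as did edgeR with no filter (adjusted p 1.94e-07) and without HFD+C2 replicate 2 (log2 change -2.09, adjusted p 0.0467). Cyp2b9 was at 74.2, 140.2 and 126.1 CPM, also below every HFD library. Its log2 change was -0.70 (95% interval -1.27 to -0.13, edgeR adjusted p 0.695), and -0.51 without HFD+C2 replicate 1, the lowest library. These 2 of 9 were the members with ranges apart, against 13% of the genes tested.

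Por under C2 was at 51.9, 123.4 and 126.1 CPM, below the HFD range in replicate 1 and above it in replicates 2 and 3. The log2 change was 0.51 with all libraries (95% interval -0.11 to 1.12, edgeR adjusted p 0.696). Without HFD+C2 replicate 1 it was 0.79 and called (adjusted p 0.0436), in a fit with 27 called genes. Nr1i3 spread in the same order, at 27.2, 42.7 and 64.6 CPM, and its log2 change of -0.19 became 0.03 without replicate 1. Cyp2b10 was at 0.346, 0.292 and 0.895 CPM and Cyp2a5 at 247.4, 386.3 and 351.1 CPM, both overlapping HFD. Cyp2a22 was at 22.5, 33.8 and 15.2 CPM (log2 change -0.72, 95% interval -1.56 to 0.12). Cyp2a12 had a log2 change of -0.16 (95% interval -0.60 to 0.27) and Cyp2a4 of 0.04 (-1.59 to 1.66). The 7 Kupffer cell and macrophage markers all had positive log2 changes under C2, 5 with an unadjusted p under 0.05, and a median of 0.78. Without HFD+C2 replicate 1 all 7 were still positive, 4 had an unadjusted p under 0.05 and the median was 0.45; their part in the members' values was not tested.

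**Figure D3:**
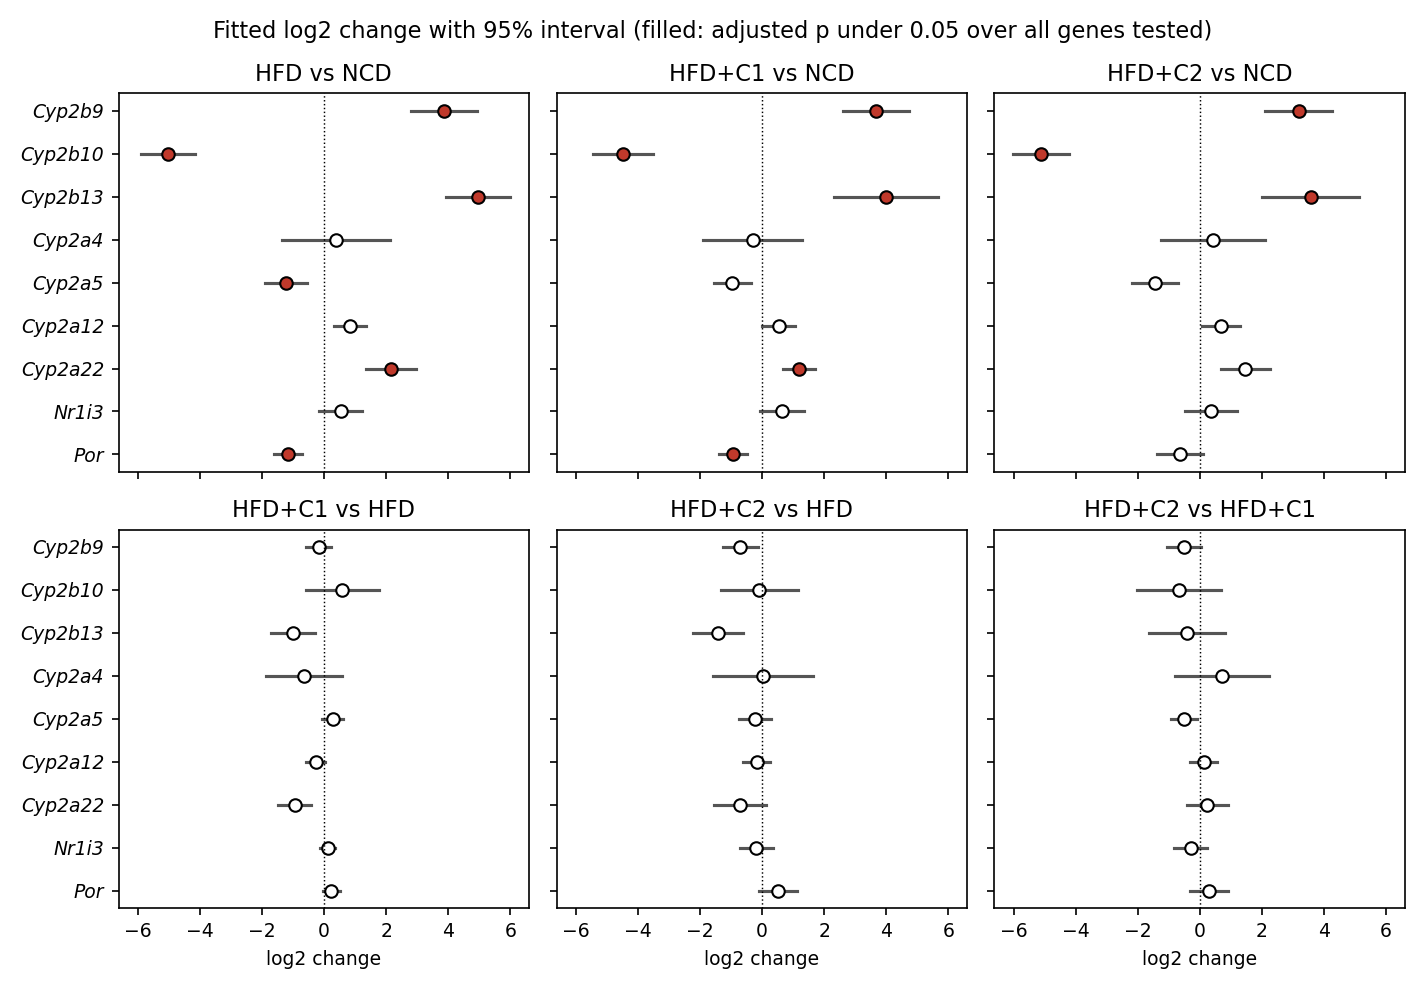
Log2 change of each member (points) with its 95% interval (lines) from the fits of 6 libraries per comparison, filled where the adjusted p over all genes tested was under 0.05. Filled points number 6, 5 and 3 in the comparisons of HFD, HFD+C1 and HFD+C2 with NCD, and 0 in the comparisons of the compounds with HFD and with each other.

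Within the Cyp2b counts, Cyp2b13 held 7.33% to 10.8% in HFD, 2.11% to 6.16% in HFD+C1 and 3.50% to 7.01% in HFD+C2, so all 6 libraries with a compound lay below the 3 HFD libraries. HFD+C1 replicate 1 was lowest. With 3 libraries against 3 an exact two-sided permutation test cannot go below p = 0.1, and none was run on this share. The 2 comparisons with HFD share the HFD libraries, and the 3 HFD values of Cyp2b13 spanned only 16.7 to 17.4 CPM.

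Set against each other at the same dose and time, C1 and C2 gave no member past the threshold in 9 members compared. In that comparison 0 of 13229 genes (0%) were called by edgeR, 608 genes had an unadjusted p under 0.05 and DESeq2 called 3. Ranges were apart for Cyp2b9 and Cyp2a5, both lower in HFD+C2, which makes 2 of 9 members against 11.6% of genes tested. The log2 difference of HFD+C2 from HFD+C1 was -0.51 for Cyp2a5 (95% interval -0.93 to -0.08, edgeR adjusted p 0.841) and -0.51 for Cyp2b9 (-1.06 to 0.04, edgeR adjusted p 0.841). For Cyp2b13 it was -0.42, and the interval of -1.64 to 0.80 leaves room for differences of over a log2 unit. For Cyp2b10 it was -0.68 (-2.02 to 0.67) and for Cyp2a4 0.71 (-0.81 to 2.23). The intervals were -0.33 to 0.56 for Cyp2a12, -0.41 to 0.89 for Cyp2a22, -0.83 to 0.24 for Nr1i3 and -0.33 to 0.91 for Por. These intervals do not show that the compounds act alike.

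Both groups given a compound were also compared with chow, which uses none of the HFD libraries but shares the NCD libraries with the diet comparison. In HFD+C1 against NCD, 5 of the 9 members were called, against 3.4% of 13534 genes. Cyp2b9 was higher by 3.68, Cyp2b13 by 3.98 and Cyp2a22 by 1.20 on the log2 scale, while Cyp2b10 fell by 4.47 and Por fell by 0.94 (edgeR adjusted p from 0.00448 to 0.0482). Cyp2a12 (log2 change 0.54), Nr1i3 (0.64) and Cyp2a4 (-0.30) were not called there; with no filter Nr1i3 was (adjusted p 0.0215). Ranges were apart for 7 members, against 37.7% of the genes tested. In HFD+C2 against NCD, 3 members were called, against 1.6% of 13691 genes: Cyp2b9 (log2 change 3.18), Cyp2b13 (3.57) and Cyp2b10 (-5.12), with edgeR adjusted p from 0.00309 to 0.0491. Cyp2a22 (log2 change 1.46), Cyp2a12 (0.68), Por (-0.64), Nr1i3 (0.36) and Cyp2a4 (0.42) were not called. Of these, Cyp2a22 was called with no filter (adjusted p 1.45e-05), with DESeq2 (adjusted p 0.00484) and in the edgeR fit of all 12 libraries (adjusted p 0.0187).

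Ranges were apart for 6 members in HFD+C2 against NCD, beside 32.8% of all genes. Cyp2a5 stood 1.45 lower on the log2 scale there (log2 change -1.45, adjusted p 0.0592) and in HFD+C1 at a log2 change of -0.96 (adjusted p 0.0716), both past the threshold only in some alternatives. Leaving out 1 library at a time, 0 to 6 members were called in HFD+C1 against NCD and 1 or 2 in HFD+C2 against NCD. In HFD+C1 against NCD, Cyp2b10 was called in 5 of these 6 fits, at log2 changes of -5.17 to -4.16. Cyp2b9 was called in 4, at log2 changes of 3.25 to 4.14, and Cyp2b13 in 1, at 3.46 to 4.74. Cyp2a22 (1.08 to 1.42) and Por (-1.04 to -0.74) were each called in 1 too, and for these 3 genes that fit was the one without NCD replicate 1. In HFD+C2 against NCD, Cyp2b10 was called in all 6, at -5.70 to -4.83. Cyp2b9 was called there only without NCD replicate 1, with log2 changes of 2.76 to 3.61 over the 6 fits, and Cyp2b13 in 0, with 2.93 to 4.26 (adjusted p from 0.0564 to 0.195).

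Ordered by group mean, Cyp2b10 ran NCD, HFD+C1, HFD and HFD+C2, with the last 3 overlapping. Cyp2b13 ran HFD, HFD+C1, HFD+C2 and NCD, and of neighbours in that order only HFD+C1 and HFD+C2 overlapped. For Cyp2b9 the order was the same, and only HFD and HFD+C1 overlapped. Por ran NCD, HFD+C2, HFD+C1 and HFD, and only NCD lay apart from its neighbour. Cyp2a5 ran NCD, HFD+C1, HFD and HFD+C2, and only the last 2 overlapped. Cyp2a22 ran HFD, HFD+C2, HFD+C1 and NCD, and only NCD lay apart. For Cyp2a4, Cyp2a12 and Nr1i3 every pair of neighbours overlapped.

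Other target genes were read from a list of 37 genes that CAR and its relative PXR are known to induce, without the 9 members. In the diet comparison 34 were tested. Of these, 0 were called higher and 7 lower, with a median log2 change of -0.48 beside -0.02 over all genes tested, of which 3.44% were called lower. Cyp2c55, a P450 of the arachidonate-metabolising subfamily, fell by 2.78 (standard error 0.27, edgeR adjusted p 0.00395). Ces2a, a carboxylesterase, fell by 2.29 (standard error 0.19, edgeR adjusted p 0.00210). Cyp3a11, the main drug-metabolising Cyp3a enzyme of mouse liver, fell by 2.09 (standard error 0.27, edgeR adjusted p 0.00927), and Ugt1a9, a glucuronosyltransferase, fell by 1.30 (standard error 0.27, edgeR adjusted p 0.0383). Gstt3, Gsta4 and Cyp3a13 were the other 3. The summed level of the list was 15449 to 20876 CPM in NCD and 9987 to 10470 CPM in HFD. Without NCD replicate 1, 17 of the 34 were called lower and 0 higher, beside 6.37% of all genes called lower in that fit.

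**Figure D4:**
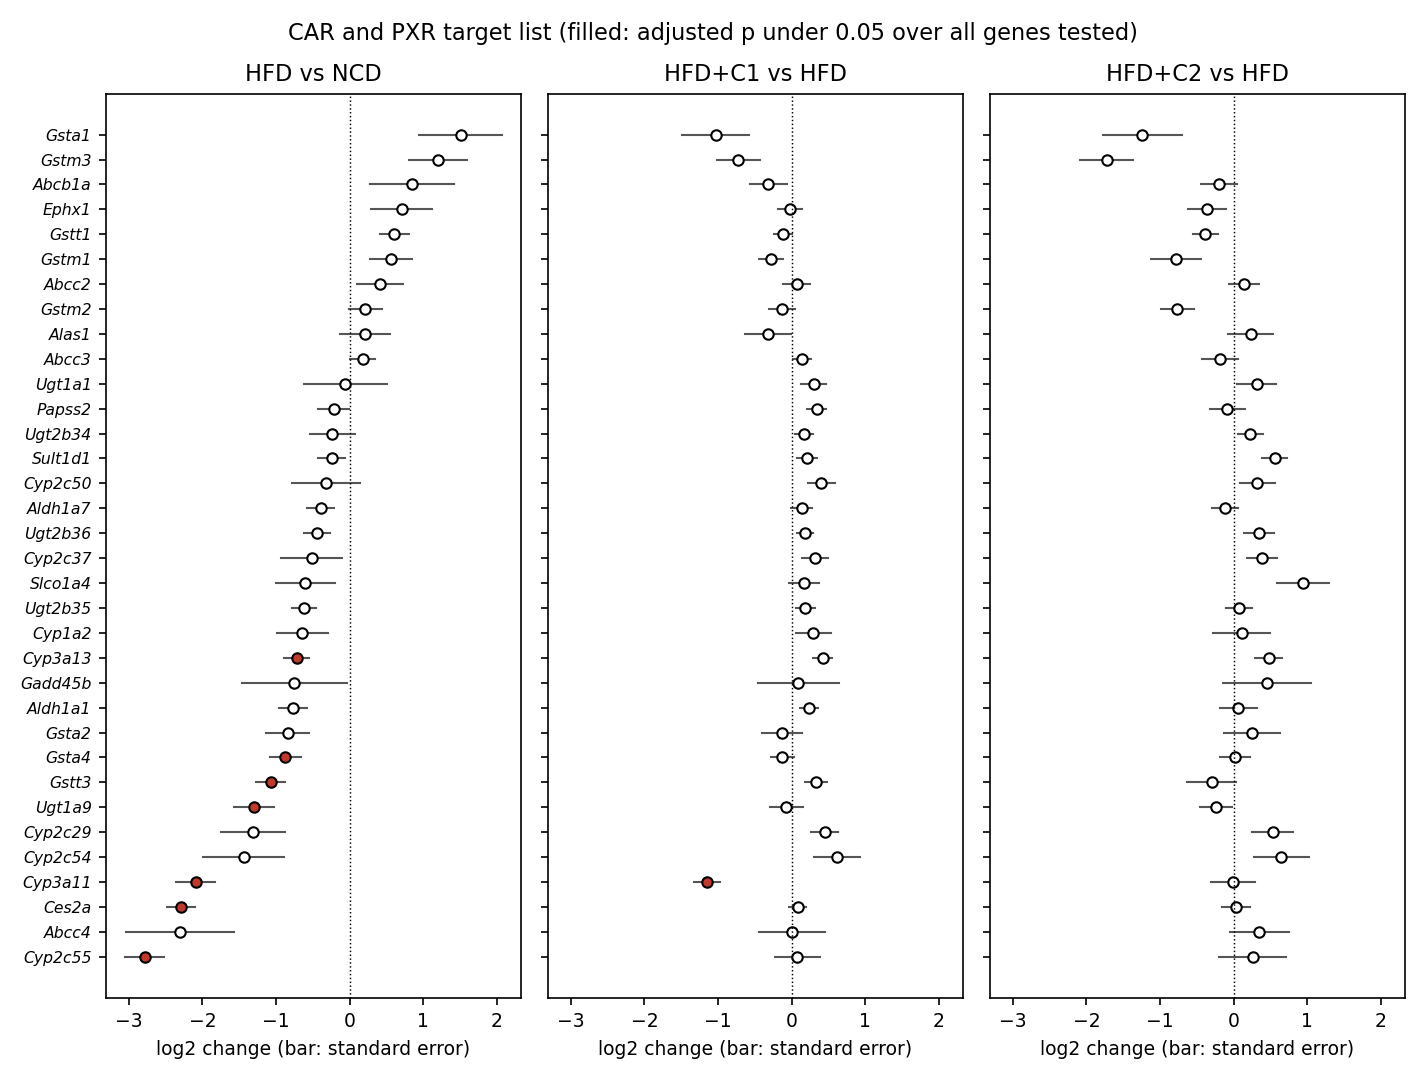
Log2 change (points) and standard error (lines) of the 34 CAR and PXR target genes tested for the diet, ordered by that change, in HFD against NCD and in C1 and C2 against HFD; filled points had an adjusted p under 0.05. The 7 filled points of the diet panel all lie below 0. The panels share the HFD libraries, so an order that looks mirrored between them is not a result.

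Under C1, 1 of 34 listed targets was called: Cyp3a11 fell by 1.15 (standard error 0.17, edgeR adjusted p 0.0377). Of the 34, 8 had an unadjusted p under 0.05, beside 1035 of 13358 genes tested, and the list's median was 0.11 beside 0.01 over all genes. Under C2, 0 of 35 were called, with 8 at an unadjusted p under 0.05 (931 of 13503 genes tested) and a median of 0.11 beside 0.02. The smallest p there belonged to Gstm3, a glutathione transferase, at a log2 change of -1.72 (edgeR adjusted p 0.625). Without HFD+C2 replicate 1, 1 of 35 was called higher. The direct comparison of the compounds called 0 of 35.

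The partners of CAR were read from a second list. Of 19 genes for partners, coregulators and upstream factors (its dimerisation partner RXR among them), 0 were called in the diet comparison, beside 6.03% of all genes, which says little for so short a list; 4 had an unadjusted p under 0.05 (4002 of 13864 genes tested) and the median was 0.16; 1 was called lower without NCD replicate 1. Egfr, the EGF receptor, whose signalling is known to hold CAR in the cytoplasm, had a log2 change of -1.47 (standard error 0.51, edgeR adjusted p 0.106), and in HFD+C1 against NCD it fell by 1.35 (standard error 0.29, edgeR adjusted p 0.0486). In HFD+C2 its log2 change was 1.10 against HFD (edgeR adjusted p 0.695) and 0.98 against HFD+C1 (edgeR adjusted p 0.841). Foxa2, a forkhead factor of hepatocytes, had log2 changes of -0.62 under C1 and -1.26 under C2, with adjusted p of 0.237 and 0.262 (edgeR). Under C2, 1 of the 19 was called lower without HFD+C2 replicate 1. Of 14 genes for other redox partners of P450 enzymes and for haem synthesis, 0 were called in any of the 6 comparisons with all libraries (for the diet beside 6.03% of all genes; 6 had an unadjusted p under 0.05 there), and 1 higher and 1 lower for the diet without NCD replicate 1. Without that library, 1 of the 14 was also called lower in HFD+C1 against NCD. For the diet, Cyb5a, cytochrome b5, had a log2 change of 0.84 (edgeR adjusted p 0.0888) and Pgrmc1 of -0.75 (edgeR adjusted p 0.0697). Of the 6 remaining Cyp2 genes of the cluster, only Cyp2f2, which lies beyond Cyp2a12, was tested, and it was called in none of the 6 comparisons (diet log2 change 0.30, edgeR adjusted p 0.623).

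The genes whose log2 CPM ran most like that of a member were ranked over the 12 libraries, among 10132 genes whose mean count was at least 50. The 12 libraries are not independent points, since they share groups, and no p is given. For Cyp2b10 the highest were Ces2a (r = 0.97), Csad (0.97) and Igfbp2 (0.97). For Cyp2b9 they were 1810055G02Rik (0.97), Nek6 (0.96) and Rsph3a (0.96), and for Cyp2b13 they were Supt20 (0.94), Sulf2 (0.93) and Cyp2b9 itself (0.93). Among the members, Cyp2a22 and Cyp2a12 were each in the other's 5 highest (r = 0.90), whereas Cyp2b10 and Cyp2b9 ran opposite (r = -0.89). For Cyp2a5 the highest were Trappc1, Eif2b5 and Ebp (0.97 each), for Nr1i3 Pcsk6 (0.98), for Por Gspt1 (0.94), and for Cyp2a4 Efcab2 (0.86).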

How the data were processed

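RNA from 12 livers was sequenced after library preparation for an automated microfluidic system, per the labels' protocols. Trimmomatic 0.39, STAR 2.7, DESeq2 and the build mm10 are named in the submitters' processing notes. The authors deposited 3 tables of read counts per gene symbol, all whole numbers, with the HFD columns identical in each. Read length, strand use and annotation version are not given in the sources used here. From these counts, 4 rows that name no gene were left out (27.3% to 58.2% of the reads of a library). CPM was computed on reads counted in genes, where 3 counts correspond to 0.0934 to 0.701 CPM.

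Each comparison was fitted on its own 6 libraries with edgeR 4.0.16 (R 4.3.3; quasi-likelihood, TMM, mean of at least 10 counts, Benjamini-Hochberg adjustment over all genes tested, call at an adjusted p under 0.05). Simulated counts were used only to check the code of the fit. Apart from the changes put in, each gene had the same expected share in every simulated library. Libraries that stand apart were thus not imitated. The 95% intervals came from the same fits. Intervals and floors for counts cover counting error only. Members and lists were chosen with earlier results of these data known. All 9 members are named in each comparison. For lists whose genes are named in a comparison, these are up to 4 called genes with the largest change, or up to 2 with the smallest p where none was called; Gstt3, Gsta4, Cyp3a13, Abcd2 and Cyp2c39 were added after their values were seen. Likeness is Pearson's r of log2(CPM + 0.5). Of 50559 symbols, 48908 matched RefSeq GRCm38.p6, from which positions and promoters were taken. Of 2220 symbols that start with LOC, 1469 have numbers not found in it, so the counts may rest on another annotation. The deposited counts carry no coordinates. Principal transcripts (GENCODE, GRCm38) gave lengths and coding sequence, aligned with Biopython 1.88. The alternatives were median-ratio scaling, no filter, a mean of at least 50 counts, DESeq2 1.42.0, a replicate block, all 12 libraries together and leaving out each library; library-size scaling was chosen after seeing the data.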

Additional observations from a re-analysis of the deposited data

How the results depend on the processing

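Over 699 refits of the 9 members, 614 kept their direction and side of the threshold, 40 lost a call and 26 gained one. The other 19 turned sign, 0 of them for a change called with all libraries. The cause was not tested for any of these or the following shifts. Called genes for the diet (836) became 4493 with no filter, 524 at a mean of at least 50 counts, 2298 with DESeq2 and 1996 in the fit of all 12 libraries. For HFD+C1 against HFD (7) they became 206 with no filter, 72 with DESeq2 and 0 in the fit of all 12 libraries (300 at an unadjusted p under 0.05). For HFD+C2 against HFD (3) they became 152, 35 and 0 (712 at an unadjusted p under 0.05), and for HFD+C2 against HFD+C1 (0) 162 with no filter and 3 with DESeq2. For HFD+C1 against NCD (460) they became 3697, 2144 and 1778, and for HFD+C2 against NCD (219) 3194, 1425 and 2196, with 140 at a mean of at least 50 counts.

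Same-numbered deviations correlated at -0.04, 0.16 and -0.09 in the diet comparison, 0.25, 0.14 and 0.0078 in HFD+C1 against NCD, 0.14, 0.074 and 0.025 in HFD+C2 against NCD, and -0.099 to 0.15 in the other 3 comparisons. In no comparison did all 3 pairs exceed 0.1, so the replicate numbers were not taken to pair the libraries. With a replicate block, 483 genes were called for the diet, 36 for HFD+C1 against HFD, 1655 for HFD+C1 against NCD and 785 for HFD+C2 against NCD. Of the members' results 52 kept their direction and side of the threshold, Cyp2a5 in HFD+C2 against NCD gained a call (log2 change -1.40) and Cyp2a4 in HFD+C2 against HFD turned to -0.16.

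Library-size scaling, chosen after seeing the data, moved the median log2 change of all genes to -0.24 for the diet, -0.21 for HFD+C1 and -0.26 for HFD+C2 against NCD. Under it the members' log2 changes kept their sign, except that of Cyp2a4 in HFD+C2 against HFD (-0.0032). It called 241 genes higher and 864 lower for the diet (359 and 477 with TMM), and 523 genes in HFD+C2 against NCD, 65 higher and 458 lower (73 and 146 with TMM); for HFD+C1 against NCD it called 156 higher and 487 lower (199 and 261).

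Leaving out 1 library at a time gave 23 to 1838 called genes for the diet, 2 to 102 for HFD+C1 against HFD, 0 to 27 for HFD+C2 against HFD, 0 to 1 for HFD+C2 against HFD+C1, 11 to 1583 for HFD+C1 against NCD and 2 to 188 for HFD+C2 against NCD. Sign-turning log2 changes then ranged, for Cyp2a4, from -0.048 to 1.49 (diet), -1.06 to 0.49 (HFD+C2 against HFD), -0.39 to 1.40 (HFD+C2 against HFD+C1), -0.95 to 0.81 (HFD+C1 against NCD) and -0.63 to 1.51 (HFD+C2 against NCD). For Cyp2b10 they ranged from -0.12 to 1.07 (HFD+C1 against HFD), -0.67 to 0.38 (HFD+C2 against HFD) and -1.26 to 0.047 (HFD+C2 against HFD+C1), and for Nr1i3 from -0.46 to 0.033 (HFD+C2 against HFD). In HFD+C2 against HFD+C1 they ranged from -1.09 to 0.082 for Cyp2b13, -0.010 to 0.25 for Cyp2a12 and -0.10 to 0.51 for Cyp2a22. Group mean levels under TMM over all 12 libraries moved by over 1 SD only for Cyp2b10 in NCD (19.0 CPM) and Cyp2b13 in HFD (17.7 CPM). At 7 to 30 counts a library, Cyp2b10 in the 9 HFD-fed libraries is limited by depth, and an arm of 2 libraries rests on the spread of all 5.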

Other observations

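Cyp2b9 and Cyp2b13 belong to a wider set of liver genes known to differ between the sexes, and other genes of that set were counted beside them. Of 20 male-biased liver genes tested for the diet, 0 were called higher and 7 lower (3.44% of all genes were called lower), with a median log2 change of -1.31 beside -0.02 over all genes. Ugt2b38, a glucuronosyltransferase gene, fell by 3.69 (standard error 0.85, edgeR adjusted p 0.0454), and Serpina1e, a serine protease inhibitor gene, fell by 2.99 (standard error 0.59, edgeR adjusted p 0.0346). Selenbp2, a selenium-binding protein gene, fell by 3.48 (standard error 0.53, edgeR adjusted p 0.0177), and Cyp7b1, an oxysterol hydroxylase, fell by 1.77 (standard error 0.30, edgeR adjusted p 0.0238). Without NCD replicate 1, 12 of the 20 were called lower, beside 6.37% of all genes. Of 24 female-biased genes 13 were tested, and 3 were called higher and 3 lower, beside 2.59% and 3.44% of all genes. Of the 13, 9 had a positive log2 change and the median was 0.62. Without NCD replicate 1, again 3 were called higher and 3 lower, beside 7.34% and 6.37% of all genes, and the median was 0.47. Hao2, a hydroxyacid oxidase gene, was higher by 2.50 (standard error 0.44, edgeR adjusted p 0.0264), and so were Abcd2, a peroxisomal transporter gene, by 2.49 (edgeR adjusted p 0.00431) and Cyp2c39 by 2.47 (edgeR adjusted p 0.0299), while Cyp2c40 fell by 3.83 (standard error 0.67, edgeR adjusted p 0.0254). The NCD libraries of Cyp2c40 spanned 3.27 to 17.4 CPM and its HFD libraries 0.280 to 0.675 CPM. Cyp2c69 fell by 3.02 (edgeR adjusted p 0.0302) and Cyp7a1, the rate-limiting enzyme of bile acid synthesis, fell by 2.68 (edgeR adjusted p 0.00478). Neither C1 nor C2 against HFD gave a call in these 2 lists with all libraries; without HFD+C2 replicate 1, 1 female-biased gene was called higher.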
